A study of Mus musculus with 24 samples.

Results

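Calml4, Cuedc1, Tbc1d22a and BC034090 are 4 mouse gene loci where histone acetylation called in control limb buds was missing from the list of limb buds that lack Sonic hedgehog (Shh). They were chosen by measured values: Calml4 and Cuedc1 hold 2 of the 3 best-ranked H3K27ac peaks of the wild-type (WT) limb list that no Shh-/- peak overlapped, and Tbc1d22a and BC034090 each hold a region that the study tested by quantitative PCR. By the study's primer list both regions are binding regions of the transcription factor GLI3, in the class whose acetylation depended on Hedgehog signaling. Overlaps and distances given below for a region tested by PCR use that binding region and not the PCR product. The members were all peaks that overlapped a gene body or the 50 kb on either side of it, which gave 318 of the 368246 peaks in 7 lists. Of these, 57 came from the WT limb H3K27ac list.

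The limb lists came from forelimb buds of Swiss Webster embryos at E10.5, with 32 to 35 somites and 400000 cells per chromatin immunoprecipitation. The Shh-/- buds were homozygous null for Shh, and by the study's methods the controls called WT included heterozygous littermates, with buds of several embryos pooled. The cell lists came from NIH3T3, Hedgehog-responsive fibroblasts of the mouse, given 400 nM purmorphamine, a Smoothened agonist, or the solvent DMSO for 48 h, at 1000000 cells per immunoprecipitation. The labels of both NIH3T3 groups also name LIF, which the study's methods do not mention for these cells. NIH3T3 is 1 cell line and not limb tissue, and its H3K27ac antibody was not the one used in the limb. H3K27ac and H3K4me2 were mapped in WT and Shh-/- buds, H3K27me3 in Shh-/- buds, and H3K27ac in the NIH3T3 cells.

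In the limb bud, Shh is made by posterior mesenchyme and is received by Patched receptors, which frees Smoothened and lets GLI transcription factors act as activators. Without the ligand, GLI3 is processed to a repressor. H3K27ac marks active promoters and enhancers, H3K4me2 is found at promoters and enhancers with or without acetylation, and H3K27me3 is the Polycomb mark of silenced genes. Calml4 encodes a calmodulin-like protein, Cuedc1 a protein with a ubiquitin-binding CUE domain and Tbc1d22a a protein with the TBC domain of Rab GTPase activators. BC034090 is known by its cDNA clone number.

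For each peak the deposited lists gave a rank within the list, with 1 the best, and the largest log2 ratio of immunoprecipitated to input reads inside the peak. Both replicates of a condition had been pooled into 1 list. No value therefore has a replicate spread, no test across replicates could be made, and each value below is that of 1 list. A peak was called unshared where no peak of the partner list overlapped it by at least 1 bp, and unshared WT limb H3K27ac peaks are called WT-only. Unshared means not called in the other list and was not a test of read numbers. By tests of read numbers, the study found most H3K27ac regions in both genotypes and a subset reduced or lost in Shh-/- buds. The unshared shares below are therefore not shares of lost acetylation. A peak missing because fewer cells carried the mark and one missing because each cell carried less of it cannot be told apart in such tissue. The lists held between 20830 and 90989 peaks. All 5 limb mesenchyme markers examined (Prrx1, Prrx2, Tbx5, Twist1, Msx1) had H3K27ac within 1 kb of a start site in both limb lists. The 3 ectoderm and 2 hindlimb markers had none, endothelium had 1 of 3 in each, and blood had 1 of 3 in WT and 0 in Shh-/-. Of 3 muscle precursor markers, none was acetylated in WT and 2 (Pax3, Lbx1) were in Shh-/-. The part of these cell types in the results below was not tested. The 3 fibroblast markers were all acetylated in both NIH3T3 lists and 1 was in each limb list.

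The reference sequences (GRCm38.p6, the assembly mm10 names) at the centre of the acetylation are shown for the best-ranked WT-only peak of Calml4, Cuedc1 and Tbc1d22a, for the Tbc1d22a peak that the region tested by PCR overlaps in 241 bp, and for an intronic BC034090 peak. Each run is read on the plus strand, covers 300 bases around the position of highest signal and holds no annotated exon. Capitals mark matches to GACCACCCA, the sequence GLI proteins prefer, at up to 1 mismatch on either strand.
Calml4 upstream of the start site, chr9:62857633-62857932: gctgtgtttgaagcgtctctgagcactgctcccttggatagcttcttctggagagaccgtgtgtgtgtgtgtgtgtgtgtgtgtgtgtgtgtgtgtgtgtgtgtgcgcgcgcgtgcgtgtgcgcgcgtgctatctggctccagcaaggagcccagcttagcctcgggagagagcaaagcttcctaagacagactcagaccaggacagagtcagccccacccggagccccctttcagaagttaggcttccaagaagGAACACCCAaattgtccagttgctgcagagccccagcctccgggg
Cuedc1 intron, chr11:88149208-88149507: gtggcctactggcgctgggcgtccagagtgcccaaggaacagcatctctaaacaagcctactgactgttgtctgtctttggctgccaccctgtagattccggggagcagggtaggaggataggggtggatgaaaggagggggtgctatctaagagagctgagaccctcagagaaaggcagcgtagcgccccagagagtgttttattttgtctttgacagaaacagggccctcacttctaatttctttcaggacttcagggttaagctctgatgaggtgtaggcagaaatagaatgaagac
Tbc1d22a intron, best-ranked WT-only peak, chr15:86477950-86478249: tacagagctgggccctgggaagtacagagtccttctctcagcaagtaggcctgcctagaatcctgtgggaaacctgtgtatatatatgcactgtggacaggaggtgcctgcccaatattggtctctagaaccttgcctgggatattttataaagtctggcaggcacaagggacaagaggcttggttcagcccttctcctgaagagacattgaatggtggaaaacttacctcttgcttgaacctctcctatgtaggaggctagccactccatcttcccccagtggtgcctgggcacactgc
Tbc1d22a intron, peak that the PCR region overlaps, chr15:86430500-86430799: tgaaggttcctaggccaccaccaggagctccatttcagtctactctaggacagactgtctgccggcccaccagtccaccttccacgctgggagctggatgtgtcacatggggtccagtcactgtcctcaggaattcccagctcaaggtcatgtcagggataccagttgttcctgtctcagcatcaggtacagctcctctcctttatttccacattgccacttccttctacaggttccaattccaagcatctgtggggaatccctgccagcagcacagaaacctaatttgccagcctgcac
BC034090 intron, chr1:155235378-155235677: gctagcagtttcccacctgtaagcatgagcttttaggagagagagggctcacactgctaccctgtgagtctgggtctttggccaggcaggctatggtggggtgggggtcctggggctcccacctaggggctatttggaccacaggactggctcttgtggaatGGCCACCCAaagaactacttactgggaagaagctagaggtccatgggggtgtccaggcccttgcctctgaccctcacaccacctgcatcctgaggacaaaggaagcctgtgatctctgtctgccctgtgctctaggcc
No exact GACCACCCA lay in any of the 5 runs, and a match with 1 mismatch lay in the Calml4 and the BC034090 run. The Calml4 run also held a long stretch of alternating t and g. These 2 are also the only ones among the 33 WT-only peaks of the loci when the run ends at the peak's edge, as printed. With full runs of 300 bases for narrow peaks too, 4 of 33 held a match with up to 1 mismatch, where 6.38% of all 24073 WT-only peaks did, and none held an exact one, where 0.299% did.

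**Figure D1:**
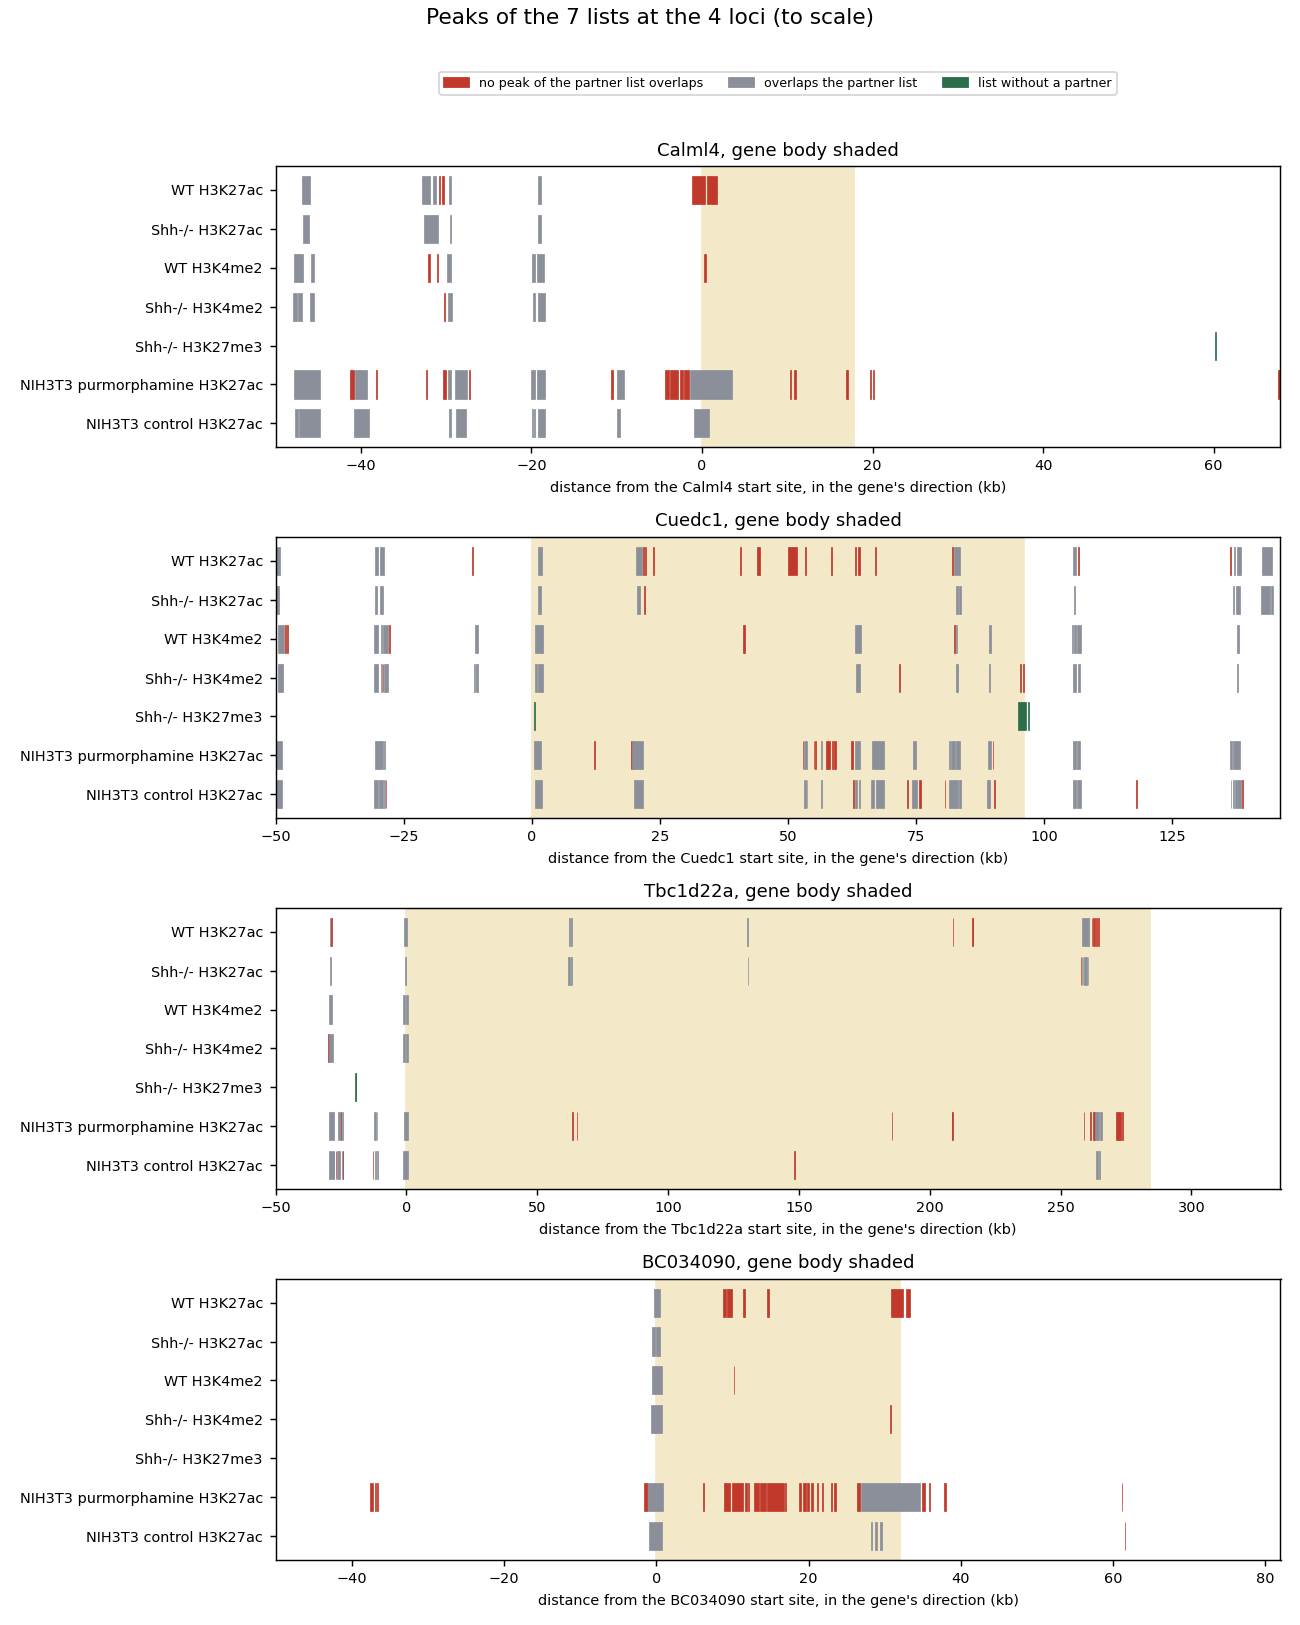
Positions of all peaks of the 7 lists at the 4 loci, drawn to scale, with the distance from the member's start site in kb on the x axis and 1 list per row. Red peaks have no overlapping peak in the partner list, grey peaks do, and green marks H3K27me3, which has no partner list. The best-ranked WT-only peaks sit over the Calml4 start, inside the Cuedc1 and Tbc1d22a genes and at the far end of BC034090, which has others in its introns. Purmorphamine peaks cover 47.1% of the whole BC034090 gene body.

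At Calml4 (ENSMUSG00000032246), on the plus strand at chr9:62858080-62875921, the start site itself was acetylated in WT buds and had no acetylation peak in Shh-/- buds. A peak of 1500 bp at chr9:62856950-62858449 covered the first exon with its UTR and coding start. Its log2 ratio was 5.79 and it ranked 1158 of 49679. A second WT-only peak, chr9:62858650-62859899, followed in the first part of the gene with a log2 ratio of 4.10. The nearest Shh-/- H3K27ac peaks were 17801 bp and 19501 bp away. The gene body had 9.08% of its length under WT H3K27ac peaks and none under Shh-/- peaks.

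The other marks at the Calml4 start were not used to choose the locus. WT buds had 1 H3K4me2 peak within 1 kb of it, 200 bp wide with a log2 ratio of 2.69, and Shh-/- buds had none there. The locus had a single H3K27me3 peak, 150 bp wide at chr9:62918200-62918349, far downstream. Acetylation at the start therefore went without a called Polycomb peak in the mutant. In NIH3T3 cells the start was acetylated with and without agonist, which differs from the limb calls. The purmorphamine peak, chr9:62856650-62861649, spanned 5000 bp with a log2 ratio of 4.99, and the control peak, chr9:62857100-62858949, spanned 1850 bp with a log2 ratio of 4.14.

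The neighbours of Calml4 had peaks in both limb lists at their start sites. Fem1b, a substrate receptor of a ubiquitin ligase, had log2 ratios of 4.75 in WT and 4.32 in Shh-/- buds. Cln6, an endoplasmic reticulum protein mutated in a neuronal storage disease, had 4.55 and 3.04. Pias1, a SUMO ligase, has its outermost annotated start outside the window, and no peak of any list lay within 1 kb of that start. Another annotated Pias1 start, also outside the window, was not examined. Of the 9 WT peaks in the window, 4 were WT-only, and the other 2 of these were weak peaks of 100 and 150 bp beside a shared intergenic peak, 151 and 551 bp from a Shh-/- peak.

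At Cuedc1 (ENSMUSG00000018378), on the plus strand at chr11:88098058-88194140, most WT-only peaks of the window lay inside the gene and none at its start. The leading peak, chr11:88148050-88149749, was intronic, 1700 bp wide, with a log2 ratio of 5.54 and rank 1661. Its middle lay 50841 bp from the gene's start, and the nearest Shh-/- peak was 27901 bp away. No peak of any of the other 6 lists overlapped it. It had neither H3K4me2 in WT buds nor H3K27ac in NIH3T3 cells by these calls.

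Of the 26 WT H3K27ac peaks in the Cuedc1 window, 15 were WT-only. The other 14 were 100 to 500 bp wide with log2 ratios of 2.40 to 3.57. A pair of them, at ranks 14952 and 24975, lay 51 bp to either side of the only unshared Shh-/- H3K27ac peak of the window, chr11:88120000-88120149, so that both genotypes had acetylation within that stretch. In all, WT peaks covered 7.55% of the gene body and Shh-/- peaks 2.19%. No H3K27ac peak lay within 1 kb of the outermost annotated Cuedc1 start in either limb list. A shared peak, chr11:88099300-88099949, lay 154 bp from another annotated Cuedc1 start, with log2 ratios of 4.94 in WT and 3.83 in Shh-/- buds. H3K4me2 was present at the start in both. The WT peak, chr11:88098600-88100299, had a log2 ratio of 3.93. In Shh-/- buds it was overlapped by separate H3K4me2 peaks, at 2.71 nearer the outermost start and at 4.26 farther in.

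The end of Cuedc1 carried the strongest H3K27me3 of the 4 loci. In Shh-/- buds a peak of 1550 bp, chr11:88193000-88194549, reached a log2 ratio of 3.68 and ranked 2043 of 20830. A smaller one of 300 bp followed it, and another of 150 bp lay at the start site with an FDR of 0.196. Under the large one the Shh-/- list had 2 small H3K4me2 peaks, chr11:88193350-88193449 and chr11:88193850-88194149, and the WT list had none. H3K27me3 in WT buds was not analysed here.

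Genes next to Cuedc1 were acetylated in both limb lists. Srsf1, a splicing factor, had the best-ranked WT H3K27ac peak of the window, with log2 ratios of 7.16 in WT and 5.53 in Shh-/- buds. Vezf1, a zinc finger transcription factor, had 5.31 and 5.33. Mrps23, a mitochondrial ribosomal protein, had 3.45 and 3.22. A WT-only peak of 150 bp, chr11:88204650-88204799, also lay 226 bp from a Mrps23 start.

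Tbc1d22a (ENSMUSG00000051864), on the plus strand at chr15:86214459-86498503, is the longest of the 4 genes, and its WT-only peaks gathered near its far end. The one of best rank, chr15:86477950-86478249, had a log2 ratio of 4.31 and was 128th among the 24073 WT-only peaks. It was part of a group of 4 intronic WT-only peaks between 86476300 and 86479199 on chromosome 15. Next to that group lay a shared peak of 2400 bp, chr15:86472550-86474949, that also overlaps the antisense RNA A930001M01Rik and reached 5.16 in WT buds. In its place the Shh-/- list had pieces of 100 to 800 bp, the strongest at 3.68. A further unshared piece of 250 bp, chr15:86472100-86472349, was 1 of only 2 unshared Shh-/- H3K27ac peaks at the 4 loci.

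The GLI3 binding region in Tbc1d22a that the study tested by PCR overlapped a weaker peak. It spans 350 bp, chr15:86430450-86430799, ranked 14697 with a log2 ratio of 3.59 and was 1565th among WT-only peaks. The region had no peak of any of the other 6 lists, and the nearest Shh-/- H3K27ac peak was 41410 bp from it. The nearest purmorphamine peak was 6379 bp away and the nearest control peak 47460 bp away. The Tbc1d22a start site was acetylated in both genotypes, at 4.08 over 1150 bp in WT and 2.73 over 250 bp in Shh-/- buds, with H3K4me2 at 3.82 and 3.26. Cerk, the ceramide kinase gene upstream, had 2.91 in WT and 3.51 in Shh-/- buds. A WT-only peak of 150 bp, chr15:86185800-86185949, also lay 192 bp from a Cerk start. The 2 H3K27me3 peaks of this window had FDR values of 0.119 and 0.181.

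BC034090 (ENSMUSG00000033722) lies on the minus strand at chr1:155212471-155244444. It had 7 WT H3K27ac peaks, of which 6 were WT-only, and 2 in Shh-/- buds, both at the outermost start site. The leading WT-only peak, chr1:155212050-155213649, covers the last exon with the end of the coding sequence and the UTR. It was 1600 bp wide with a log2 ratio of 4.75, ranked 4446, and was 32nd among WT-only peaks. A weak Shh-/- H3K4me2 peak of 100 bp, chr1:155213600-155213699, overlapped its edge, with a log2 ratio of 2.45 and an FDR of 0.0504. It ranked 33768 of 38468 and lay 174 bp from the region tested by PCR. No H3K4me2 peak of WT buds overlapped the leading WT-only peak. The GLI3 binding region tested by PCR lies at this peak, and the nearest Shh-/- H3K27ac peak was 30574 bp from that region. Another WT-only peak of 550 bp lay just past the gene's end, and 4 of 200 to 700 bp lay in introns, 1 of them across an exon of the antisense gene Gm37622. That peak, chr1:155232800-155232999, was 60 bp from a second annotated start of BC034090, inside the gene. A purmorphamine peak that no control peak overlapped, chr1:155232550-155232849, covered this inner start.

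The outermost start of BC034090 was acetylated in every H3K27ac list. The log2 ratios were 4.85 in WT and 3.66 in Shh-/- buds, and 5.07 with purmorphamine and 4.70 in control cells. H3K4me2 there had ratios of 4.00 in WT and 3.96 in Shh-/- buds. The window held no H3K27me3 peak. Stx6, a membrane fusion protein, and Xpr1, a phosphate exporter, start outside the window, and both had H3K27ac in both limb lists (4.06 and 3.94 at Stx6, 3.68 and 3.10 at Xpr1, WT first).

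**Figure D2:**
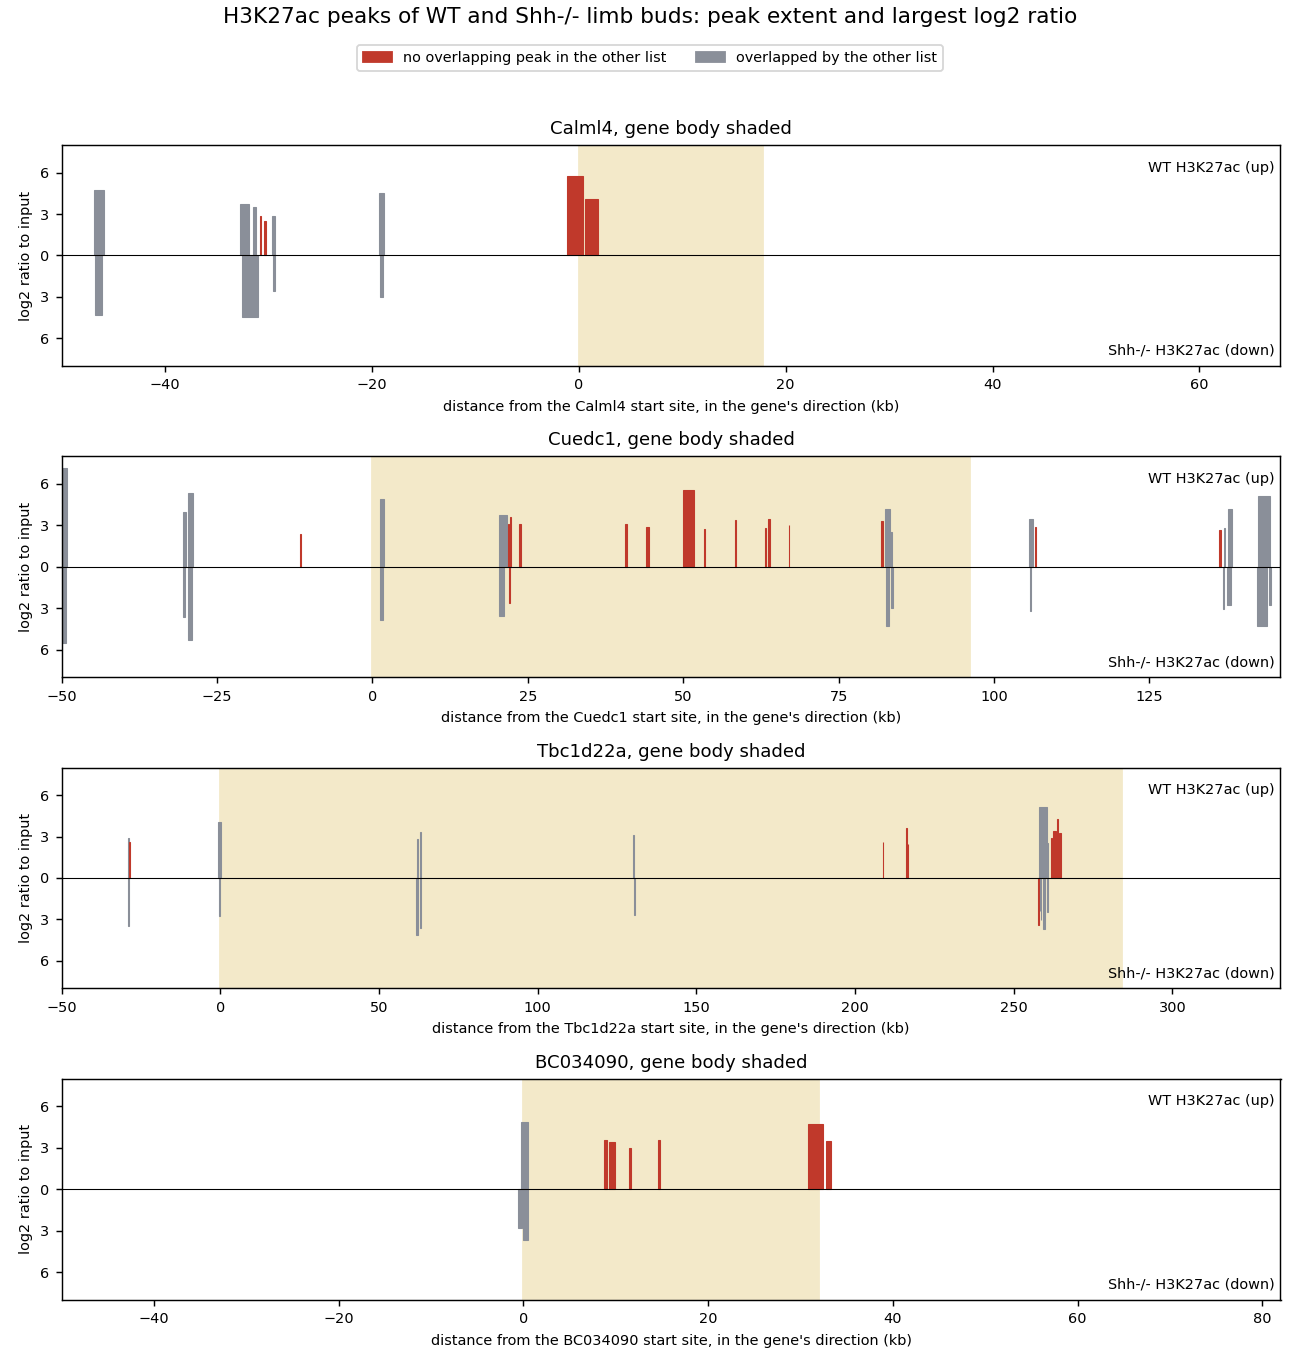
H3K27ac peaks of WT (up) and Shh-/- (down) limb buds, each drawn at its true width by distance from the start site in kb, with the largest log2 ratio to input as its height. Red peaks have no overlapping peak in the other list. The red WT peaks reach 5.79 at Calml4, 5.54 at Cuedc1, 4.31 at Tbc1d22a and 4.75 at BC034090, while 2 red peaks point down, at Cuedc1 and Tbc1d22a.

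The loci were chosen on WT-only peaks, so the share of such peaks is given as a description. Over the 4 loci 33 of 57 WT H3K27ac peaks were WT-only, 57.9% with a 95% Wilson interval of 45.0 to 69.8, against 48.5% of all WT peaks. Such intervals cover counting error only, and neighbouring peaks are not independent. By locus the counts were 4 of 9 at Calml4, 15 of 26 at Cuedc1, 8 of 15 at Tbc1d22a and 6 of 7 at BC034090. In the other direction 2 of 29 Shh-/- peaks were unshared, or 6.90% (1.91 to 22.0), against 38.4% of that list. WT peaks covered 2.26 times the length of Shh-/- peaks over the 4 windows, from 1.89 times at Cuedc1 to 5.44 times at BC034090, where 4350 bp stood against 800 bp. The ratio over the whole lists was 1.18. Where peaks were shared, the WT ratio was higher in 15 of 24, by a median of 0.24 on the log2 scale, and the median over all 25606 shared WT peaks was 0.14.

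Just outside the choice, the WT-only peaks that ranked next after the Cuedc1 peak were rank 2187 in an intron of Gli1, with a log2 ratio of 5.34, and rank 2333 in an intron of Cpvl, with 5.28. The only WT-only peak with a better rank than that of Calml4 was rank 979 in an exon of Gm5086, with 5.88, and a Shh-/- peak lay 151 bp from it. The Cpvl peak was 1 bp from a Shh-/- peak, and the Gli1 peak was 27701 bp from the nearest, close to the 27901 bp of the Cuedc1 peak and farther than the 17801 bp of the Calml4 peak.

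H3K4me2, which the choice of loci did not use, was close to its background at the loci. In WT buds 9 of 31 H3K4me2 peaks were unshared (29.0%, 16.1 to 46.6), against 25.7% of the list, and in Shh-/- buds 7 of 32 were (21.9%, 11.0 to 38.8), against 22.5%. Covered length was 1.15 times as large in WT as in Shh-/- buds, against 1.11 for the whole lists. Of the 33 WT-only H3K27ac peaks, 5 were overlapped by H3K4me2 in WT buds and 5 in Shh-/- buds, or 15.2% each (6.65 to 30.9), where 16.7% and 15.6% of all WT-only peaks were. Where acetylation was missing in the mutant, most peaks thus had no H3K4me2 call in either genotype.

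H3K27me3 peaks of Shh-/- buds numbered 6 in the 4 windows, with 1 at Calml4, 3 at Cuedc1, 2 at Tbc1d22a and 0 at BC034090. So 3 of 4 windows had one, where 53.1% of the 21911 windows of protein-coding genes did. None of the 33 WT-only peaks was overlapped by one, and 0.690% of all WT-only peaks were. A count of 0 in 33 leaves an upper Wilson bound of 10.4%, so a share as low as the background could not be seen with this number.

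**Figure D3:**
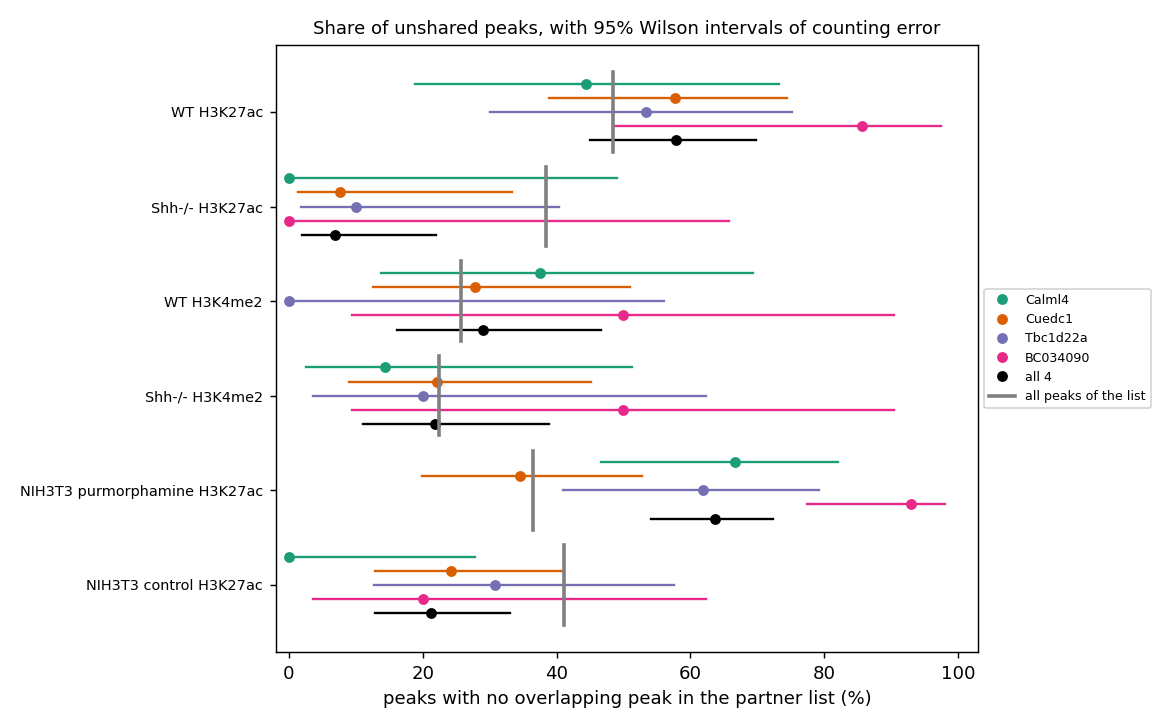
Share of peaks with no overlapping peak in the partner list (x axis, percent), for each locus and for all 4 together, in the 6 lists that have a partner. Points are shares, lines are 95% Wilson intervals of counting error, and grey bars are the shares over all peaks of the list. The H3K4me2 points for all 4 loci lie near the grey bars (29.0% beside 25.7%, 21.9% beside 22.5%), and the purmorphamine point (63.7%) lies to the right of its bar (36.5%).

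NIH3T3 cells give a readout of Hedgehog activation that the choice of loci did not use. With purmorphamine 65 of 102 H3K27ac peaks at the 4 loci had no control peak over them, 63.7% (54.1 to 72.4), against 36.5% of the list. In control cells 13 of 61 peaks were unshared, 21.3% (12.9 to 33.1), against 41.1%. The loci did not do this alike. At BC034090 26 of 28 purmorphamine peaks were unshared, at Calml4 16 of 24 and at Tbc1d22a 13 of 21. At Cuedc1 the count was 10 of 29, or 34.5% (19.9 to 52.7), which is near the background.

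BC034090 had the widest gap between agonist and control. Purmorphamine peaks covered 20700 bp of its window and control peaks 2550 bp, a ratio of 8.12, where the whole lists gave 0.938. Inside the gene body 20 purmorphamine peaks covered 47.1% of the sequence and 4 control peaks 4.83%. The largest, chr1:155209800-155217599, spanned 7800 bp over the end of the gene with a log2 ratio of 4.71 and took in the WT-only limb peak there. The control list had only 3 pieces of 200 to 300 bp under it, with log2 ratios up to 2.48. As a share of the window, the difference between purmorphamine and control was 13.8 percentage points, and 89 of 21911 gene windows had a larger one.

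At Calml4 purmorphamine peaks covered 18350 bp and control peaks 9400 bp. The ratio was 1.95, the difference 7.59 percentage points, and 242 windows had a larger one. Just upstream of the shared start-site peak, 4 purmorphamine peaks of 400 to 1000 bp lay within chr9:62853700-62856549, and none had a control peak over it. The ratios were 1.61 at Tbc1d22a, with 12050 and 7500 bp, and 1.08 at Cuedc1, with 20050 and 18550 bp. At the Tbc1d22a start the control ratio was the higher one, 4.89 against 4.62, whereas at the Cuedc1 start purmorphamine gave 5.54 and control 4.73.

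**Figure D4:**
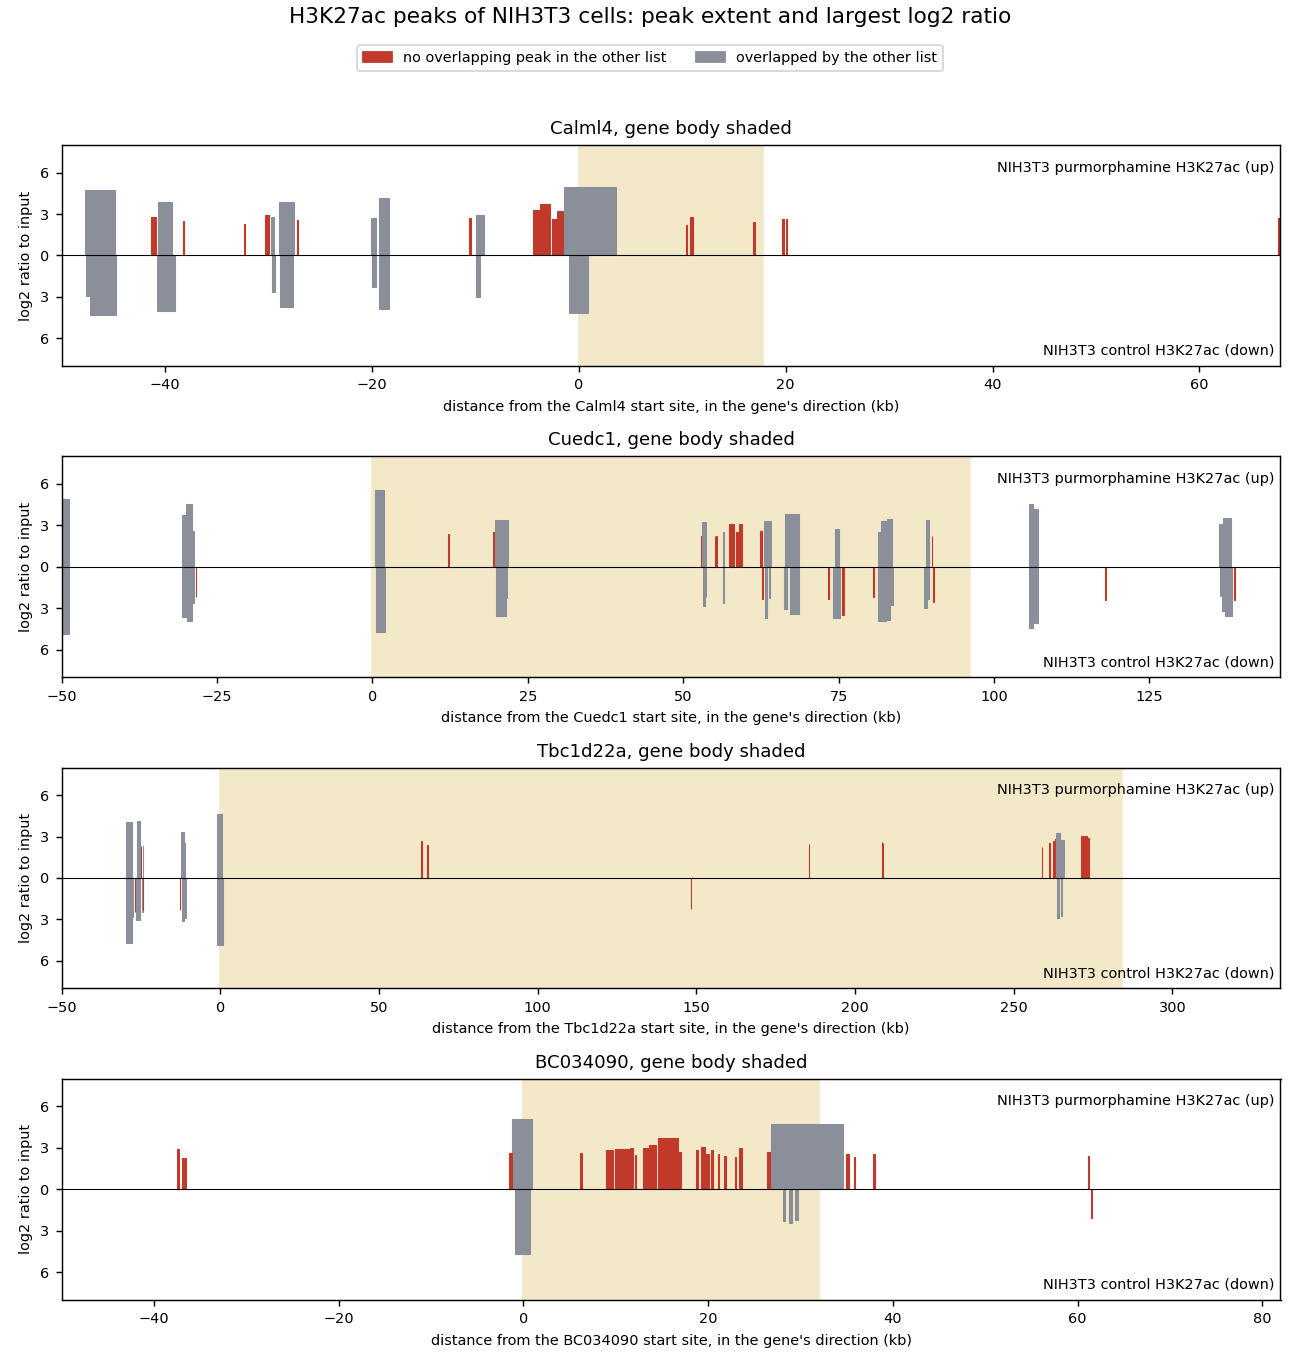
H3K27ac peaks of NIH3T3 cells with purmorphamine (up) and in control cells (down), at their true width by distance from the start site in kb, with the largest log2 ratio to input as height. Red peaks have no overlapping peak in the other list. Purmorphamine peaks cover 47.1% of the BC034090 gene body, with a peak of 7800 bp at its end, while Cuedc1 has 29 purmorphamine and 33 control peaks.

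WT-only limb peaks at the loci lay under purmorphamine peaks more often than those of the whole list, and for control peaks the interval held the share of the whole list. Of the 33 WT-only limb peaks, 21 were overlapped by a purmorphamine peak, 63.6% (46.6 to 77.8), where 24.5% of all WT-only peaks were. Control peaks overlapped 10, or 30.3% (17.4 to 47.3), where 24.2% of all were. Overlap with purmorphamine and no control peak was seen for 11, 33.3% (19.8 to 50.4), against 3.97% of all. These 11 were 6 of 6 at BC034090, 3 of 8 at Tbc1d22a and 1 each at Calml4 and Cuedc1, so the count rests largely on BC034090. The WT-only peaks at BC034090 lay along 1 gene and are not independent of each other.

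**Figure D5:**
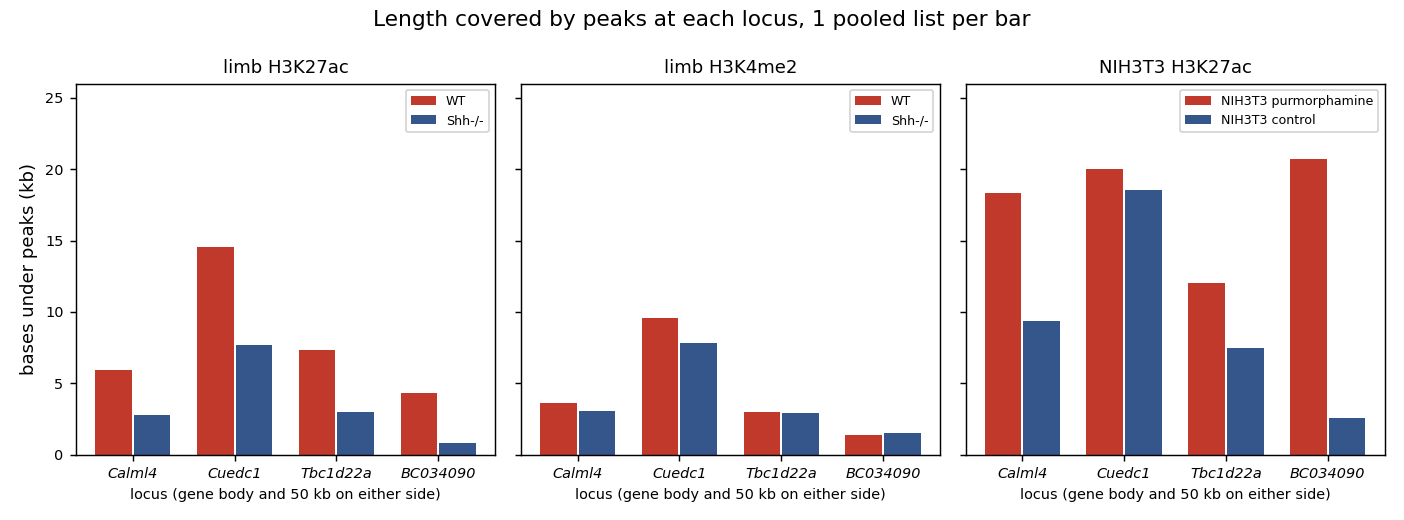
Length under peaks (y axis, kb) at each locus for limb H3K27ac, limb H3K4me2 and NIH3T3 H3K27ac, with 1 pooled list per bar and so no error bar. WT exceeds Shh-/- for H3K27ac at all 4 loci, H3K4me2 bars differ by at most 1.22 times, and the purmorphamine to control ratio runs from 1.08 at Cuedc1 to 8.12 at BC034090.

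The same counts in windows of 8 genes of the Hedgehog response and limb patterning (Gli1, Ptch1, Hhip, Hand2, Grem1, Hoxd11, Hoxd12, Hoxd13) gave a scale for the 4 loci. Their WT-only shares ran from 36.4% at Gli1 to 85.7% at Grem1 with a median of 70.9%. The purmorphamine-only share in the 6 of these windows with peaks ran from 12.9% at Grem1 to 77.8% at Ptch1 with a median of 55.6%. BC034090 had 85.7%, the same as Grem1, and 92.9%, which was above the share at Ptch1. Calml4 (44.4%), Tbc1d22a (53.3%) and Cuedc1 (57.7%) were all below the WT-only median. For purmorphamine Calml4 (66.7%) and Tbc1d22a (61.9%) were above the median and Cuedc1 (34.5%) was below it. Several of these windows overlap each other, as the Hoxd genes do. Hoxd11, Hoxd12 and Hoxd13 each had 5 of 9 purmorphamine peaks unshared, and that repeated value is the purmorphamine median of 55.6%.

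By the share of the window under peaks in each of the 7 lists, on a log2 scale, the protein-coding genes nearest to BC034090 were Optn, Lrrc8d and D630045J12Rik. Their distances were 1.21, 1.46 and 1.63, and the median over all genes was 5.74. At Optn purmorphamine peaks covered 20.1% of the window and control peaks 2.58%, and WT limb peaks 2.44% and Shh-/- peaks 0.767%. The genes nearest to Calml4 were Gm6525, Hipk1 and Twist2, at 0.720, 0.742 and 0.909. Kif2c and Stk11ip were among the 3 nearest to Cuedc1, and those nearest to Tbc1d22a were Akap11, Utrn and Crlf2.

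The WT-only peaks at the loci held no exact GACCACCCA in 33, and 0.233% of all WT-only peaks held one. With up to 1 mismatch 6 of 33 did, where 4.27% of all WT-only peaks did. Peak width was not matched in this comparison, and the leading peaks at the loci are wide. The 10 matches in these 6 peaks follow with 10 bases on either side, read in the direction of the motif. Capitals mark the match and the substitution is counted from 1 at the motif's 5′ end, with the motif's base first.
Calml4, chr9:62857150-62857178, plus strand, C7A: caggctatgtGACCACACAcagtgactga
Calml4, chr9:62857878-62857906, plus strand, C3A: ttccaagaagGAACACCCAaattgtccag
Calml4, chr9:62858378-62858406, plus strand, A2C: tggacagctgGCCCACCCAcaggcttggg
Cuedc1, chr11:88148687-88148715, plus strand, A2G: cttgctggagGGCCACCCAcctggcctga
Cuedc1, chr11:88149195-88149223, minus strand, A2G: agcgccagtaGGCCACCCAccaggtccca
Cuedc1, chr11:88149543-88149571, minus strand, A2G: cctagggaatGGCCACCCAttcccccact
Tbc1d22a, chr15:86477570-86477598, plus strand, G1A: caggcaggagAACCACCCAggtgtgtcag
BC034090 last exon, chr1:155212615-155212643, plus strand, A2C: cctgcctgctGCCCACCCAcagctgccac
BC034090 intron, chr1:155234747-155234775, minus strand, A2G: cttgtggaatGGCCACCCAaagaactact
BC034090 intron, chr1:155235530-155235558, plus strand, A2G: cttgtggaatGGCCACCCAaagaactact
The leading peaks of Calml4 and Cuedc1 held 3 matches each. All 3 at Cuedc1 and the 2 in BC034090 introns shared the A2G change.

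The 2 intronic BC034090 matches stand in the same 29 letters because the sequence around them is duplicated. An inverted repeat with arms of 225 bases and no mismatch, chr1:155234648-155234872 and chr1:155235433-155235657, with 560 bases between them, lies under 2 WT-only peaks. The arm occurs 2 times in the main chromosomes. Reads that fall wholly within an arm cannot be placed in one or the other copy, and the position of highest signal of the second peak (rank 14760) lies inside its arm. The 2 peaks therefore share part of their sequence and were counted as called.

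Each window held 2 exact matches, in lengths from 117842 bp at Calml4 to 384045 bp at Tbc1d22a. No background was computed for whole windows, so these counts are a description. One in the Calml4 window, chr9:62812711-62812719, lay under NIH3T3 peaks of both the purmorphamine and the control list. One in the Cuedc1 window lay in a limb peak, shared by both genotypes, at chr11:88240500-88242449. Another lay in a Cuedc1 intron, 286 bp from a WT-only peak and 36 bp from a purmorphamine peak. In the Calml4 gene 1 exact match lay 19 bp from a purmorphamine peak that no control peak overlapped, and 8924 bp from the nearest WT-only peak. The last 3 are shown in the direction of the motif.
Cuedc1 downstream, chr11:88241537-88241565, minus strand: tctctctagtGACCACCCAcactcttaca
Cuedc1 intron, chr11:88156825-88156853, plus strand: agggctgcagGACCACCCAtgctggggct
Calml4 intron, chr9:62868813-62868841, minus strand: agcccacccaGACCACCCActcacctatc
RefSeq promoters of all 4 genes were matched, 6 in number, and none held the exact motif, which 0.253% of 32851 promoters did. A share that low could not be seen in 6 promoters. With up to 1 mismatch a match lay in 1 of 1 promoters at Calml4, 1 of 2 at Cuedc1, 1 of 2 at Tbc1d22a and 0 of 1 at BC034090, against 6.74% of all promoters. The absence of these letters from a window says nothing of whether a GLI protein binds there. The study reports GLI3 binding at the regions in Tbc1d22a and BC034090 that it tested by PCR. Its binding regions were not compared with the other peaks here. The 33 WT-only peaks had a median G and C content of 54.5%, from 36.7% to 61.3%, and the median over all WT-only peaks was 45.5%. The 24 shared WT peaks of the loci had a similar median, 55.3%, against 49.3% over all shared WT peaks, so this was not particular to WT-only peaks.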

How the data were processed

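The members and gene lists were chosen with earlier results of these data known. Reads had been aligned to mm10 with Bowtie2 2.2.5 (submitters' processing notes, which also name limma), and by the study's methods peaks were called with CisGenome against input, both replicates of a condition together. Among the 24 libraries, 10 were inputs, 1 for each limb H3K27ac and H3K4me2 condition and 2 for each other list. The methods give only a minimum depth for the libraries, and the lists hold no read numbers, so the depth of each library is unknown. The label and the methods give different H3K27me3 antibodies.

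The authors deposited for each peak an FDR, which is a q-value, a score on which the rank rests, the largest log2 ratio to input, and −log10 of the smallest Poisson p-value, limited to 100. Lists were not cut at a common FDR (highest 0.000805 to 0.255). These values were used to rank, filter and describe peaks.

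Peaks were compared by overlap of at least 1 bp (Python 3.11.15, pandas 2.3.3, SciPy 1.17.1). Peaks on scaffolds outside the main chromosomes, at most 34 per list, were left out. Peak positions are as deposited and were read as 1-based. Genes came from the basic GENCODE annotation and sequence from RefSeq GRCm38.p6, whose chromosome lengths hold all peak ends. The start of a gene was its outermost annotated one unless another is named, while for markers every annotated start counted. Shares have 95% Wilson intervals. Profile distances were Euclidean over log2 of percent covered plus 0.1. Named were the 4 members, the protein-coding genes of their windows, a Hedgehog list, per locus the best-ranked WT-only peak and peaks over it, the best-ranked peaks per list, the 3 nearest profiles and the next 2 WT-only peaks. Other peaks were named after their values were seen. The Hedgehog list as first fixed held 1 further gene, which is in none of its counts here, and 1 nearest profile is not reported. The overlap and motif functions were tested on simulated data.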

Additional observations from a re-analysis of the deposited data

How the results depend on the processing

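No paired analysis was possible because each list pools both replicates of a condition, and for the same reason no replicate could be left out. Shares were recomputed with 50% of the peak required to overlap, with peaks up to 500 bp apart taken as shared, an FDR under 0.05, the better-ranked 50% of each list, peaks within 1 kb merged, windows of 20 and 100 kb, and, chosen after seeing the data, each locus left out and the same settings for the reverse lists. The WT-only share, a description since WT-only peaks chose the loci, ran from 49.1% to 69.0%. The low end came with the 500 bp gap (whole list 30.5%) and the high end with windows of 20 kb (whole list 48.5%). The purmorphamine-only share ran from 42.2% to 75.3% and was above that of the whole list in 12 of 12 settings. It moved to 52.9% with the 500 bp gap (whole list 24.5%), 50.0% with the better-ranked 50% (26.8%) and 42.2% with merging (27.4%). It was 75.3% without Cuedc1 and 52.7% without BC034090 (whole list 36.5%). The Shh-/- only share was 24.1% with 50% overlap (whole list 46.8%). It was 0% with the gap (whole list 20.9%) and with merging (31.8%). The control-only share was 8.20% with the gap (whole list 26.9%) and 10.7% with merging (29.4%). The unshared Shh-/- H3K4me2 share was 7.14% in the better-ranked 50%, or 1 of 14 peaks (whole list 20.8%). H3K27me3 peaks fell to 3 with the FDR limit and to 3 in the better-ranked 50%. Peaks with the motif rose from 1 to 12 of 57 with 1 mismatch allowed. The other 58 of 72 alternative values stayed within the interval or 1.5 times the count of the main one.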
